A study of Mus musculus with 30 samples.

Results

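The 46 genes described here encode the proteins that license DNA for replication, start and move the replication fork, supply nucleotides, rebuild chromatin behind the fork, or switch the cell into S phase. They are a list of gene symbols, with no threshold on measured values in the rule, but chosen with earlier results of these data known. All 46 were found among the 19938 genes measured. A gene with more than 1 probe set was represented by the brightest over all 30 arrays. RNA from dissected mouse brain tumors and from normal brain had been hybridised to Affymetrix Mouse Gene 1.0 ST arrays, which give a log2 signal for each probe set. On that scale a difference of 1 is a 2-fold difference.

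The tumors are labelled by the promoter that drives the injected Cre recombinase and by the site of injection. There were 3 GFAP-Cre tumors of the subventricular zone (SVZ), 4 NES-Cre tumors of the hippocampus, 7 GFAP-Cre tumors of the hippocampus, 4 SYN1-Cre tumors of the cortex and 4 GFAP-Cre tumors of the cortex, beside 4 samples of normal hippocampus and 4 of normal cortex with no promoter. GFAP is an astrocyte gene, NES (nestin) a neural progenitor gene and SYN1 (synapsin) a neuron gene, and each promoter sets in which cells Cre is made. The alleles that Cre acted on and the strain, sex and age of the mice are not given in the sources used here. The normal samples do not include SVZ, so the SVZ tumors were set against the mean of both normal groups, which is not matched by region. No label states whether arrays of a group came from different mice. The p-values therefore describe the spread among these samples, and that spread may be technical.

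Replication is prepared in G1 phase, when the origin recognition complex, to which Orc1 and Orc6 belong, works with Cdc6 and Cdt1 to load rings of Mcm2 to Mcm7 onto DNA. At the start of S phase Cdc45 and the GINS complex join the Mcm ring and make it the active helicase. Polymerase alpha with primase then begins each new strand, polymerase epsilon extends the leading strand, and polymerase delta, held by the PCNA clamp, extends the lagging strand. Most of these genes are transcribed by E2F factors once the kinases of cyclin D and cyclin E have relieved the hold of the retinoblastoma proteins on E2F. Neurons of the adult cortex have left the cell cycle, while progenitors of the SVZ and of the hippocampal dentate gyrus still divide.

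Promoter sequences of RefSeq genes (build GRCm38.p6), from 250 bases before to 50 bases after each start, held 38 of the 46 genes. The letters TTTCCCGC, TTTCGCGC, TTTGCCGC and TTTGGCGC, which are forms of the E2F site, were searched on both strands. They occurred in 14 of the 38 genes (36.8%), against 704 of all 27025 genes with a window (2.605%) and 543 of the 15614 that were also measured on the array (3.48%). The 14 were Cdc6, Cdt1, E2f2, Lig1, Mcm3, Mcm5, Mcm6, Mcm7, Orc1, Pola1, Pold1, Pole2, Rfc3 and Uhrf1. Licensing genes made up 7 of them, of the 9 licensing genes that had a window. A match of letters is a description of the window and not a measured binding site. The windows of Mcm3, Mcm5, Mcm6 and Mcm7, which hold 2 or 3 copies, are printed because their products form 1 ring and their levels turn up throughout the results. Rfc3, the clamp loader gene with 2 copies, and Ccne1, a gene with none that passed in no tumor group, are set beside them. Of 11 genes with a window that rose in all 4 region-matched comparisons described below, 5 held the letters. Of 4 that rose in none, 1 (E2f2) did. None of the 4 nucleotide supply genes did. Whether the letters go with the calls was not tested. Capitals mark the E2F letters, on either strand, and overlapping copies run together. Mcm7 has another window, with no copy, that is not printed.
Mcm3 (chr1:20820263-20820562, minus strand): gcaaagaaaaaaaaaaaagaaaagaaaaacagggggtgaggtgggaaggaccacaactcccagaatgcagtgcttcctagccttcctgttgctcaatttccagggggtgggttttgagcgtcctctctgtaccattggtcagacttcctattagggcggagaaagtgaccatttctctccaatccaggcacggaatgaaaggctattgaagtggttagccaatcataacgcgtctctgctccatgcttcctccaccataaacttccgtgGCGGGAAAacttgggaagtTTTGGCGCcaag
Mcm5 (chr8:75109259-75109558, plus strand): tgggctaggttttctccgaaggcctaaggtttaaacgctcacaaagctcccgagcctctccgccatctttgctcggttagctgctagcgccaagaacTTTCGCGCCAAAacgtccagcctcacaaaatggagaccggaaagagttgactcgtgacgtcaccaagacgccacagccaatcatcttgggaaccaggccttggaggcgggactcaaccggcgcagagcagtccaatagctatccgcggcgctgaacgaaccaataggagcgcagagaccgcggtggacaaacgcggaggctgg
Mcm6 (chr1:128359656-128359955, minus strand): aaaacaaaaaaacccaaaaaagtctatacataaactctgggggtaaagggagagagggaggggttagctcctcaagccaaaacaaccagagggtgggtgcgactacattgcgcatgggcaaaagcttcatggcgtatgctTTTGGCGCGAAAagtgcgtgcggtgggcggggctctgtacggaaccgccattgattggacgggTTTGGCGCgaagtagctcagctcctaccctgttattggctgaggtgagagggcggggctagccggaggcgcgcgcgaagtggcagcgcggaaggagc
Mcm7 (chr5:138171834-138172133, minus strand): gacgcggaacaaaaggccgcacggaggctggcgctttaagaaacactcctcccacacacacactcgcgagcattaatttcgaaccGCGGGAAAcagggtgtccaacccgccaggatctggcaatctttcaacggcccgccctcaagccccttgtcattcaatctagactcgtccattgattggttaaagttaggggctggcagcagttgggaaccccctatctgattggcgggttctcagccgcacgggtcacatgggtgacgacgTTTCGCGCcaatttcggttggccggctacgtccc
Rfc3 (chr5:151651159-151651458, minus strand): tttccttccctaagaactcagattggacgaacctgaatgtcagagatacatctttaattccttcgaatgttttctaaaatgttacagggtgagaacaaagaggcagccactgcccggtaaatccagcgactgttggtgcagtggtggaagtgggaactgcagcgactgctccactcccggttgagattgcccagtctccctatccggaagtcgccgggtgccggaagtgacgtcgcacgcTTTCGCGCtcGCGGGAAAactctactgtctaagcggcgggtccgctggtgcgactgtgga
Ccne1 (chr7:38107441-38107740, minus strand): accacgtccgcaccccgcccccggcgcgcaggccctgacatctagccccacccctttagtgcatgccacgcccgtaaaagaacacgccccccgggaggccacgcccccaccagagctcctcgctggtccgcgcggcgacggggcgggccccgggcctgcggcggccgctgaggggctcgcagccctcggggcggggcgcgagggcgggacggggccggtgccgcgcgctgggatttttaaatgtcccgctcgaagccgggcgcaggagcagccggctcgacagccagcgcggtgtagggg

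Before any test, the level of the gene group was taken on each array as the mean over its 46 genes. It was 8.67, 8.47 and 8.19 in GFAP SVZ tumors. In hippocampus it was 8.65, 8.19, 8.14 and 8.04 in NES tumors and from 7.55 to 9.06 with a median of 8.72 in GFAP tumors, against 7.46, 7.46, 7.46 and 7.43 in normal tissue. In cortex it was 8.93, 8.30, 8.31 and 9.16 in SYN1 tumors and 7.98, 8.01, 8.39 and 8.45 in GFAP tumors, against 7.50, 7.51, 7.48 and 7.50 in normal tissue. All 22 tumor arrays lay above all 8 normal arrays. GFAP hippocampus tumor 5 was the lowest tumor array, close to the normal ones, while the normal arrays lay within 7.43 to 7.51.

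**Figure D1:**
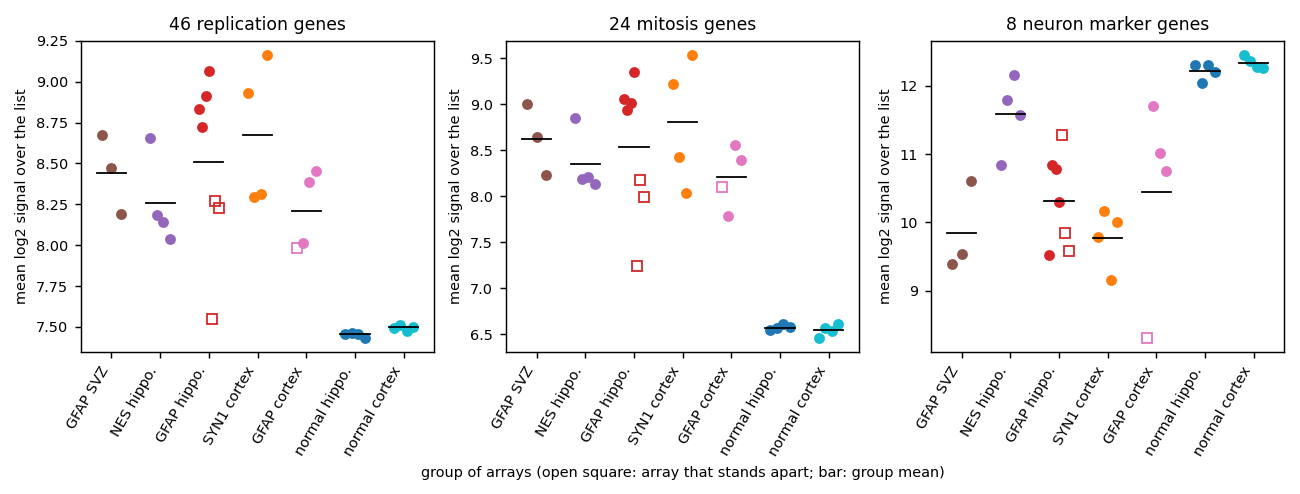
Mean log2 signal (vertical axis) on each array over the 46 replication genes, 24 mitosis genes and 8 neuron marker genes, by group of arrays (horizontal axis), with a bar at each group mean and open squares for 4 arrays that stand apart. The replication and mitosis means of every tumor array lie above those of all normal arrays, GFAP hippocampus tumor 5 lies nearest to them, and the neuron means run from 8.32 to 12.15 in tumors and from 12.04 to 12.45 in normal brain.

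Several things about the samples touch these values. On the second principal component of all genes (14.2% of the variance) 4 arrays stood apart from their groups, namely GFAP cortex tumor 1 and GFAP hippocampus tumors 5, 6 and 7, and results that rest on them are also given without them. Normal arrays had high neuron markers (mean of 8 genes 12.04 to 12.45). All tumor arrays but NES hippocampus tumor 3 (12.15), which lay in the normal range, had lower ones. Their ranges were 9.39 to 10.61 in GFAP SVZ, 10.84 to 12.15 in NES hippocampus and 9.53 to 11.28 in GFAP hippocampus tumors. In cortex they were 9.16 to 10.17 in SYN1 and 8.32 to 11.70 in GFAP tumors. Of the 8 neuron markers 7, 0, 6, 6 and 6 fell in these groups (limma; 0 of 8 had an unadjusted p under 0.05 in NES tumors). Of 7 microglia and macrophage markers 5, 6, 6, 5 and 5 rose, with mean levels of 9.38 to 9.83, 9.17 to 10.29, 9.32 to 10.32, 8.57 to 10.09 and 8.87 to 10.17, against 8.04 to 8.37 in normal brain. Of 6 endothelial markers 5, 1, 5, 5 and 2 rose, and of 5 oligodendrocyte markers 5, 0, 2, 5 and 5 fell. In the same order, 3, 2, 3, 3 and 2 of 4 neural progenitor markers, 1, 0, 2, 2 and 4 of 6 mural and fibroblast markers and 4, 1, 0, 0 and 0 of 6 T and NK cell markers rose. Of 7 astrocyte markers 0, 0, 1, 1 and 0 rose and 2, 0, 0, 2 and 1 fell, and of 5 oligodendrocyte precursor markers 0, 0, 1, 0 and 0 rose and 2, 0, 0, 0 and 0 fell. The part of these cell types in the replication gene values was not tested. In bulk RNA, more dividing cells and more RNA of a gene in each cell cannot be told apart.

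In every tumor group replication genes were higher than in normal brain, and none passed the test in the lower direction. A gene is said to have risen where limma's adjusted p (Benjamini-Hochberg over all 19938 genes of the comparison) was under 0.05. In GFAP SVZ tumors 35 of the 46 rose against all normal brain, where 16.2% of all genes were called higher, with a median log2 difference over the 46 of 0.89. In NES hippocampus tumors 15 rose against normal hippocampus, where 5.69% of all genes were called higher (median 0.74), although all 46 differences were above 0. In GFAP hippocampus tumors 38 rose against normal hippocampus (16.1% of all genes; median 1.04). In SYN1 cortex tumors 38 rose against normal cortex (18.2% of all genes; median 1.10). In GFAP cortex tumors 22 rose against normal cortex (9% of all genes; median 0.65). The median over all genes was -0.003, -0.04, -0.08, -0.04 and -0.10 in these comparisons. In the lower direction 21.4, 2.86, 25.2, 20.5 and 18.8% of all genes were called, and none of the 46. Centring each array on its median put the all-gene median at -0.20 in NES hippocampus tumors (against -0.04 as deposited) and at -0.16 between NES and GFAP hippocampus tumors (against 0.06), and the median of the 46 at 0.59 and -0.49, so the genes are read against all genes. The comparisons of a region share its normal arrays.

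The number of genes called depended on single arrays in places. Without the 4 arrays that stand apart the counts were 37, 32, 44, 41 and 29 of 46 in GFAP SVZ, NES hippocampus, GFAP hippocampus, SYN1 cortex and GFAP cortex tumors, with 21.8, 11.2, 26, 23.1 and 12.9% of all genes called higher. None of those 4 arrays enters the NES hippocampus difference, and the NES count moved because limma pools the spread over all groups. Without NES hippocampus tumor 1 the NES count was 6, and Mcm3, Mcm7, Gins1, Lig1, Rrm1 and Rrm2 were the genes called then. Over all settings but the stricter thresholds, 22 of 35, 6 of 15, 35 of 38, 31 of 38 and 14 of 22 called genes passed in every one. Calls in SYN1 cortex tumors that were lost without tumor 1 or tumor 4 were those of Cdc6, Prim1, Rfc1, Rfc2, Rfc4, Fen1 and Rpa1 (limma adjusted p up to 0.209, for Prim1). In GFAP SVZ tumors those of Mcm5, Orc1, Cdc6, Mcm10, Cdc45, Gins2, Pola1, Pola2, Prim1, Pold1, Pcna, Fen1 and Dna2 were lost without tumor 1 or tumor 2. In GFAP cortex tumors those of Mcm2, Pola2, Pole2, Rfc3, Rrm1 and Lig1 were lost without 1 of the 4 tumors. No tumor array overlapped the normal arrays compared with it for 35, 33, 19, 38 and 28 of the 46 genes (19.1, 13.6, 8.43, 23.1 and 13.3% of all genes lay apart in that direction).

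Across the 4 comparisons with normal tissue of the same region, 13 genes rose in all 4, 11 in 3, 12 in 2, 4 in 1 and 6 in none. The 13 were the helicase genes Mcm3 and Mcm7, the GINS gene Gins1, the polymerase epsilon gene Pole, the clamp loader gene Rfc3, Lig1 and Dna2 of Okazaki fragment processing, the nucleotide genes Rrm1, Rrm2 and Tk1, the chromatin genes Chaf1b and Uhrf1, and E2f8. The 6 were Gins4, Pold2, Rfc5, E2f2, Ccne1 and Ccne2. Of the 13, only Mcm3, Mcm7, Gins1, Lig1, Rrm1 and Rrm2 kept the NES call without NES hippocampus tumor 1. Rfc3, Rrm1 and Lig1 lost the GFAP cortex call without 1 of its tumors. Without the 4 arrays that stand apart, 26 genes rose in all 4 comparisons and E2f2 and Ccne1 alone rose in none of them. The share of all genes that rose in all 4 was not taken in either setting.

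**Figure D2:**
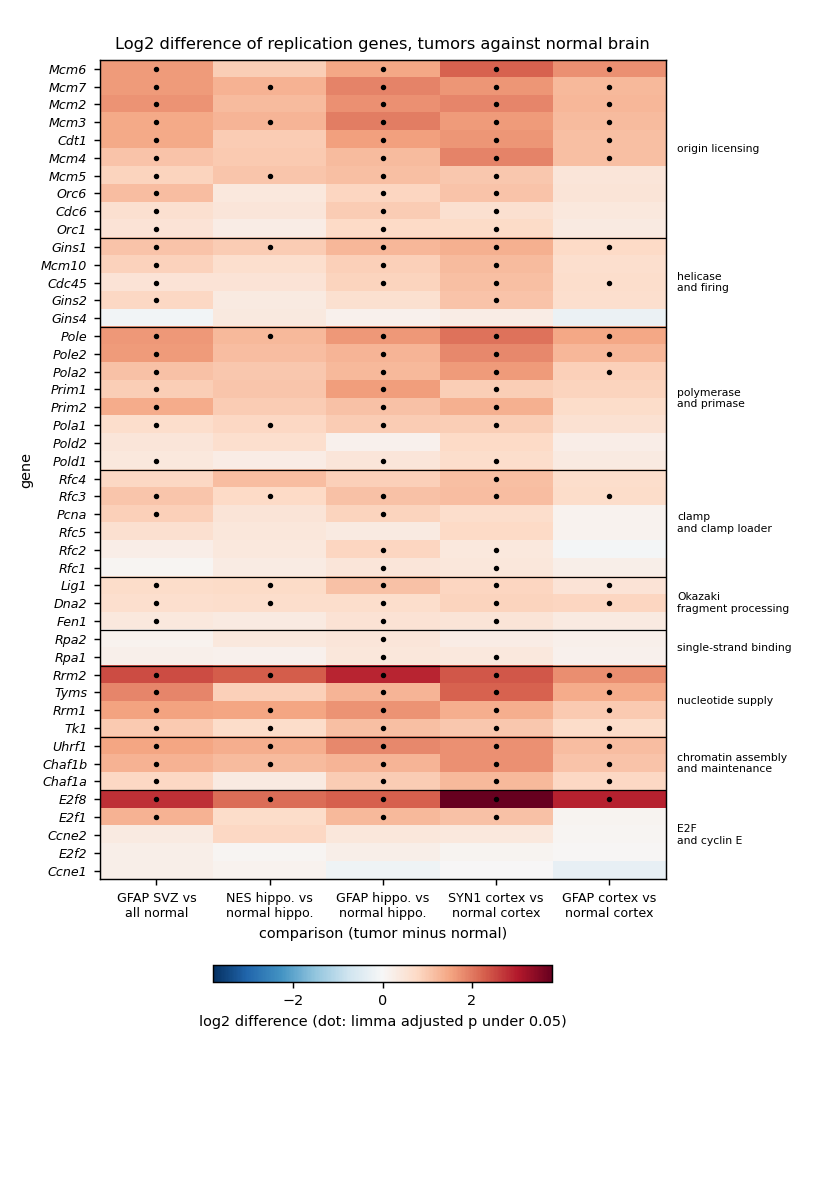
Log2 difference of tumors minus normal brain (colour) for each of the 46 genes (rows, grouped by role) in 5 comparisons (columns), with a dot where limma's adjusted p was under 0.05. Differences are largest for E2f8 and Rrm2, and the rows of Gins4, Pold2, Rfc5, E2f2, Ccne1 and Ccne2 have no dot.

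All 10 origin licensing genes rose in 3 of the 5 tumor groups. Counted by group, 10 rose in GFAP SVZ tumors, 3 in NES hippocampus, 10 in GFAP hippocampus, 10 in SYN1 cortex and 6 in GFAP cortex tumors. Mcm6, a subunit of the ring helicase, had the largest mean difference of the 10. Mcm6 had log2 signals of 9.05, 8.64 and 8.17 in the GFAP SVZ tumors. In hippocampus, Mcm6 was at 9.15, 8.53, 7.71 and 7.83 in NES tumors and from 7.46 to 9.37 with a median of 8.97 in GFAP tumors, against 7.34, 7.09, 7.56 and 7.44 in normal tissue. In cortex, Mcm6 was at 9.43, 8.37, 8.12 and 9.61 in SYN1 tumors and 8.22, 7.96, 8.59 and 8.68 in GFAP tumors, against 6.59, 6.36, 6.81 and 6.80 in normal tissue. Tumor arrays lay above their normal tissue with the exception of GFAP hippocampus tumor 5, which fell among the normal hippocampus arrays. Log2 differences of Mcm6 were 1.62 ± 0.34 (SE) against all normal brain in GFAP SVZ tumors, 0.94 ± 0.36 in NES hippocampus tumors, 1.47 ± 0.32 in GFAP hippocampus tumors, 2.24 ± 0.36 in SYN1 cortex tumors and 1.72 ± 0.36 in GFAP cortex tumors. With limma the adjusted p was 0.000431, 0.105, 0.000611, 1.97e-05 and 0.001 in the same order for Mcm6. In NES tumors Mcm6 passed without the 4 arrays that stand apart (limma adjusted p = 0.0339, difference 0.94).

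Mcm3, another ring subunit whose promoter holds 2 copies of the E2F letters, rose in every comparison with normal brain. The 3 GFAP SVZ tumors had Mcm3 at 8.29, 8.06 and 7.66 (log2 signal). Hippocampal arrays had Mcm3 at 8.34, 7.87, 7.53 and 7.48 in NES tumors and from 7.41 to 8.95 with a median of 8.63 in GFAP tumors, against 6.52, 6.47, 6.50 and 6.61 in normal tissue. Cortical arrays had Mcm3 at 8.61, 7.72, 7.62 and 9.02 in SYN1 tumors and 7.89, 7.32, 8.16 and 7.90 in GFAP tumors, against 6.61, 6.61, 6.66 and 6.62 in normal tissue. All tumor arrays lay above all normal arrays, and SYN1 cortex tumors 1 and 4 lay well above tumors 2 and 3. The fit put the Mcm3 difference at 1.43 ± 0.27 (SE) against all normal brain in GFAP SVZ tumors, 1.28 ± 0.29 in NES hippocampus tumors, 1.95 ± 0.25 in GFAP hippocampus tumors, 1.61 ± 0.29 in SYN1 cortex tumors and 1.19 ± 0.29 in GFAP cortex tumors. The limma adjusted p was 0.000161, 0.005, 1.9e-06, 6.38e-05 and 0.00299 in the same order for Mcm3.

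Mcm7 also rose in every group, with log2 differences of 1.62, 1.31, 1.88, 1.69 and 1.24 in GFAP SVZ, NES hippocampus, GFAP hippocampus, SYN1 cortex and GFAP cortex tumors (limma adjusted p = 4.28e-05, 0.00422, 3.22e-06, 3.9e-05 and 0.00222). Mcm7 averaged 9.01 ± 0.71 in GFAP SVZ tumors, 8.67 ± 0.26 in NES hippocampus tumors and 9.24 ± 0.52 in GFAP hippocampus tumors, against 7.36 ± 0.09 in normal hippocampus. In cortex, Mcm7 averaged 9.11 ± 0.59 in SYN1 tumors and 8.66 ± 0.22 in GFAP tumors, against 7.42 ± 0.02 in normal tissue. These means carry their SD. Of the other ring subunits, Mcm2 and Mcm4 rose in all groups but NES hippocampus tumors, and Mcm5 in all but GFAP cortex tumors. Differences of Mcm2, Mcm4 and Mcm5 ran from 1.02 to 1.88 in SYN1 cortex tumors and from 0.47 to 1.26 in GFAP cortex tumors. Cdt1, which brings the ring to the origin, differed by 1.44, 0.97, 1.57, 1.67 and 1.16 in the same order of groups. It passed in all but NES hippocampus tumors (limma adjusted p = 0.0705 there).

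Orc1, a subunit of the recognition complex, had the smallest mean difference of the licensing genes. Mean Orc1 levels were 6.24 ± 0.07 in GFAP SVZ tumors, 5.95 ± 0.28 in NES hippocampus tumors and 6.42 ± 0.37 in GFAP hippocampus tumors, against 5.67 ± 0.16 in normal hippocampus. Mean cortical Orc1 levels were 6.47 ± 0.44 in SYN1 tumors and 6.09 ± 0.26 in GFAP tumors, against 5.74 ± 0.07 in normal tissue. It rose by 0.53 in GFAP SVZ, 0.75 in GFAP hippocampus and 0.73 in SYN1 cortex tumors (limma adjusted p = 0.0319, 0.00171 and 0.00491). Orc6 and the loader gene Cdc6 rose in the same 3 groups, Orc6 by 1.18, 0.83 and 1.08 and Cdc6 by 0.60, 0.97 and 0.62. None of the 3 passed in NES hippocampus or GFAP cortex tumors, where their differences were 0.28 to 0.46 and 0.35 to 0.50.

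Of the 5 genes that turn the loaded ring into a moving helicase, 4 rose in GFAP SVZ, 1 in NES hippocampus, 3 in GFAP hippocampus, 4 in SYN1 cortex and 2 in GFAP cortex tumors. Gins1, a subunit of the GINS complex, rose in all 5 groups. The 3 GFAP SVZ tumors had Gins1 at 6.95, 6.87 and 6.59 (log2 signal). Hippocampal arrays had Gins1 at 6.98, 6.78, 6.67 and 6.45 in NES tumors and from 6.17 to 7.55 with a median of 6.996 in GFAP tumors, against 5.68, 5.76, 5.72 and 5.86 in normal tissue. Cortical arrays had Gins1 at 7.48, 6.77, 6.56 and 7.48 in SYN1 tumors and 6.55, 6.36, 6.54 and 6.44 in GFAP tumors, against 5.77, 5.68, 5.72 and 5.70 in normal tissue. Tumor and normal arrays did not overlap in any group. The fit put the Gins1 difference at 1.07 ± 0.20 (SE) against all normal brain in GFAP SVZ tumors, 0.96 ± 0.21 in NES hippocampus tumors, 1.27 ± 0.19 in GFAP hippocampus tumors, 1.35 ± 0.21 in SYN1 cortex tumors and 0.75 ± 0.21 in GFAP cortex tumors. The limma adjusted p was 0.000138, 0.00422, 8.55e-06, 1.46e-05 and 0.00864 in the same order for Gins1.

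Mcm10, a firing factor that despite its name is not part of the ring, had the second largest mean difference of this role. Mean Mcm10 levels were 7.59 ± 0.16 in GFAP SVZ tumors, 7.37 ± 0.21 in NES hippocampus tumors and 7.65 ± 0.57 in GFAP hippocampus tumors, against 6.74 ± 0.10 in normal hippocampus. Mean cortical Mcm10 levels were 7.90 ± 0.71 in SYN1 tumors and 7.33 ± 0.14 in GFAP tumors, against 6.69 ± 0.15 in normal tissue. It rose in GFAP SVZ, GFAP hippocampus and SYN1 cortex tumors, and its differences of 0.63 in NES hippocampus and 0.65 in GFAP cortex tumors did not pass (limma adjusted p = 0.178 and 0.0867). Both passed without the 4 arrays that stand apart (limma adjusted p = 0.0476 and 0.0356). Cdc45 rose in all groups but NES hippocampus tumors, by 0.53 to 1.15.

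The GINS subunits did not share a pattern. Gins2 rose in GFAP SVZ and SYN1 cortex tumors (log2 difference 0.77 and 1.07), and Gins4 passed in no group. Gins4 averaged 9.47 ± 0.14 in GFAP SVZ tumors, 9.93 ± 0.25 in NES hippocampus tumors and 9.72 ± 0.69 in GFAP hippocampus tumors, against 9.54 ± 0.14 in normal hippocampus. In cortex, Gins4 averaged 9.93 ± 0.39 in SYN1 tumors and 9.41 ± 0.55 in GFAP tumors, against 9.63 ± 0.18 in normal tissue. Gins4 differences were -0.12, 0.38, 0.17, 0.30 and -0.22 in GFAP SVZ, NES hippocampus, GFAP hippocampus, SYN1 cortex and GFAP cortex tumors (limma adjusted p = 0.812, 0.498, 0.634, 0.504 and 0.653). GFAP hippocampus tumors 5 to 7 lay at 8.93 to 9.03, below all other hippocampal arrays, and tumors 1 to 4 at 10.07 to 10.46. Without tumors 5 to 7 and GFAP cortex tumor 1 the Gins4 difference in GFAP hippocampus tumors was 0.72 (limma adjusted p = 0.00115).

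Among the 8 polymerase and primase genes, 7 rose in GFAP SVZ, 2 in NES hippocampus, 7 in GFAP hippocampus, 7 in SYN1 cortex and 3 in GFAP cortex tumors. Pole, the catalytic subunit of polymerase epsilon, rose in all groups. The 3 GFAP SVZ tumors had Pole at 8.30, 8.05 and 7.78 (log2 signal). Hippocampal arrays had Pole at 8.30, 7.58, 7.30 and 7.54 in NES tumors and from 6.77 to 9.27 with a median of 8.41 in GFAP tumors, against 6.30, 6.54, 6.52 and 6.48 in normal tissue. Cortical arrays had Pole at 8.60, 8.09, 7.80 and 9.13 in SYN1 tumors and 7.52, 7.50, 8.002 and 8.11 in GFAP tumors, against 6.30, 6.48, 6.19 and 6.35 in normal tissue. No tumor array overlapped the normal ones, and GFAP hippocampus tumors 1 to 4 lay above tumors 5 to 7. The fit put the Pole difference at 1.65 ± 0.35 (SE) against all normal brain in GFAP SVZ tumors, 1.22 ± 0.37 in NES hippocampus tumors, 1.66 ± 0.33 in GFAP hippocampus tumors, 2.08 ± 0.37 in SYN1 cortex tumors and 1.46 ± 0.37 in GFAP cortex tumors. The limma adjusted p was 0.00053, 0.037, 0.000266, 6.96e-05 and 0.00451 in the same order for Pole.

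Its partner subunit gene Pole2 rose in 4 groups and differed by 1.16 in NES hippocampus tumors, where it did not pass (limma adjusted p = 0.106). Pole2 averaged 7.73 ± 0.54 in GFAP SVZ tumors, 7.30 ± 0.43 in NES hippocampus tumors and 7.41 ± 0.98 in GFAP hippocampus tumors, against 6.13 ± 0.15 in normal hippocampus. In cortex, Pole2 averaged 7.89 ± 0.89 in SYN1 tumors and 7.34 ± 0.40 in GFAP tumors, against 6.06 ± 0.21 in normal tissue. Both catalytic and accessory genes of polymerase alpha rose, Pola1 by 0.66, 0.78, 0.97 and 0.95 in the first 4 groups, and Pola2 by 1.11, 1.25, 1.61 and 0.92 in all but NES hippocampus tumors. The primase genes Prim1 and Prim2, whose products lay down the RNA primer, rose in GFAP SVZ, GFAP hippocampus and SYN1 cortex tumors, by 0.92 to 1.40, 1.12 to 1.60 and 0.93 to 1.36.

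The polymerase delta genes had the smallest differences of this role. Mean Pold1 levels were 7.64 ± 0.27 in GFAP SVZ tumors, 7.50 ± 0.21 in NES hippocampus tumors and 7.67 ± 0.21 in GFAP hippocampus tumors, against 7.22 ± 0.17 in normal hippocampus. Mean cortical Pold1 levels were 7.91 ± 0.26 in SYN1 tumors and 7.57 ± 0.06 in GFAP tumors, against 7.22 ± 0.04 in normal tissue. Pold1, the catalytic subunit, rose in GFAP SVZ, GFAP hippocampus and SYN1 cortex tumors by 0.42, 0.45 and 0.68 (limma adjusted p = 0.0158, 0.00532 and 0.000335). Pold2 averaged 9.33 ± 0.49 in GFAP SVZ tumors, 9.53 ± 0.28 in NES hippocampus tumors and 9.08 ± 1.14 in GFAP hippocampus tumors, against 8.90 ± 0.10 in normal hippocampus. In cortex, Pold2 averaged 9.56 ± 0.49 in SYN1 tumors and 9.06 ± 0.61 in GFAP tumors, against 8.81 ± 0.08 in normal tissue. Pold2, an accessory subunit, passed in no group, with differences of 0.47, 0.63, 0.18, 0.75 and 0.25. Its SD in GFAP hippocampus tumors was the widest of its 7 groups, since tumors 5 to 7 lay at 7.48 to 8.27 and tumors 1 to 4 at 9.46 to 10.21. Pold2 passed without the 4 arrays that stand apart in NES hippocampus, GFAP hippocampus and SYN1 cortex tumors (limma adjusted p = 0.0476, 0.000371 and 0.00636).

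The clamp and its loader were called less evenly. Of the 6 genes, 2 rose in GFAP SVZ, 1 in NES hippocampus, 4 in GFAP hippocampus, 4 in SYN1 cortex and 1 in GFAP cortex tumors. Pcna, the clamp, rose in GFAP SVZ and GFAP hippocampus tumors, by 0.91 and 0.85 (limma adjusted p = 0.0158 and 0.015). The 2 probe sets of Pcna differed by at most 0.0559 on any array. Mean Rfc3 levels were 8.17 ± 0.35 in GFAP SVZ tumors, 7.81 ± 0.25 in NES hippocampus tumors and 8.16 ± 0.49 in GFAP hippocampus tumors, against 7.04 ± 0.13 in normal hippocampus. Mean cortical Rfc3 levels were 8.39 ± 0.46 in SYN1 tumors and 7.90 ± 0.33 in GFAP tumors, against 7.20 ± 0.12 in normal tissue. Rfc3 was the loader gene that rose in all 5 groups, by 1.05, 0.77, 1.12, 1.18 and 0.70 (limma adjusted p = 0.000813, 0.0493, 0.000222, 0.00035 and 0.0344).

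The other loader subunits differed among themselves. Rfc4 averaged 8.92 ± 0.34 in GFAP SVZ tumors, 9.21 ± 0.38 in NES hippocampus tumors and 8.94 ± 0.90 in GFAP hippocampus tumors, against 8.04 ± 0.06 in normal hippocampus. In cortex, Rfc4 averaged 9.36 ± 0.81 in SYN1 tumors and 8.87 ± 1.01 in GFAP tumors, against 8.22 ± 0.08 in normal tissue. Rfc4 rose in SYN1 cortex tumors only (log2 difference 1.15, limma adjusted p = 0.0472), although its difference was 1.17 in NES hippocampus tumors (adjusted p = 0.115), and it passed in all 5 groups without the 4 arrays that stand apart. Mean Rfc1 levels were 8.15 ± 0.07 in GFAP SVZ tumors, 8.44 ± 0.22 in NES hippocampus tumors and 8.58 ± 0.17 in GFAP hippocampus tumors, against 8.12 ± 0.16 in normal hippocampus. Mean cortical Rfc1 levels were 8.45 ± 0.27 in SYN1 tumors and 8.25 ± 0.26 in GFAP tumors, against 8.03 ± 0.08 in normal tissue. Rfc1, the large subunit, rose by 0.45 in GFAP hippocampus and 0.42 in SYN1 cortex tumors. Rfc5 averaged 9.90 ± 0.30 in GFAP SVZ tumors, 9.68 ± 0.27 in NES hippocampus tumors and 9.60 ± 1.11 in GFAP hippocampus tumors, against 9.24 ± 0.19 in normal hippocampus. In cortex, Rfc5 averaged 10.10 ± 0.47 in SYN1 tumors and 9.48 ± 0.33 in GFAP tumors, against 9.34 ± 0.04 in normal tissue. Rfc5 passed in no group, with differences of 0.61, 0.43, 0.35, 0.75 and 0.13, and passed in GFAP SVZ, GFAP hippocampus and SYN1 cortex tumors without those 4 arrays (limma adjusted p = 0.0177, 8.31e-05 and 0.00526).

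Rfc2, a small loader subunit, was the member that passed between GFAP hippocampus and GFAP cortex tumors. Rfc2 had log2 signals of 8.29, 8.09 and 8.06 in the GFAP SVZ tumors. In hippocampus, Rfc2 was at 8.25, 8.33, 8.48 and 7.95 in NES tumors and from 8.41 to 8.80 with a median of 8.67 in GFAP tumors, against 8.03, 7.86, 7.71 and 7.76 in normal tissue. In cortex, Rfc2 was at 8.71, 8.04, 8.11 and 8.49 in SYN1 tumors and 7.42, 7.84, 7.97 and 8.18 in GFAP tumors, against 8.04, 7.88, 7.85 and 7.99 in normal tissue. All 7 GFAP hippocampus tumors lay above every normal hippocampus array and above every GFAP cortex tumor, while GFAP cortex tumors spanned the normal cortex arrays. Rfc2 rose by 0.81 ± 0.13 (SE) in GFAP hippocampus tumors and by 0.40 ± 0.15 in SYN1 cortex tumors (limma adjusted p = 3.45e-05 and 0.0357). It differed by -0.08 ± 0.15 in GFAP cortex, 0.41 ± 0.15 in NES hippocampus and 0.26 ± 0.14 in GFAP SVZ tumors, where it did not pass (limma adjusted p = 0.746, 0.0905 and 0.174).

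**Figure D3:**
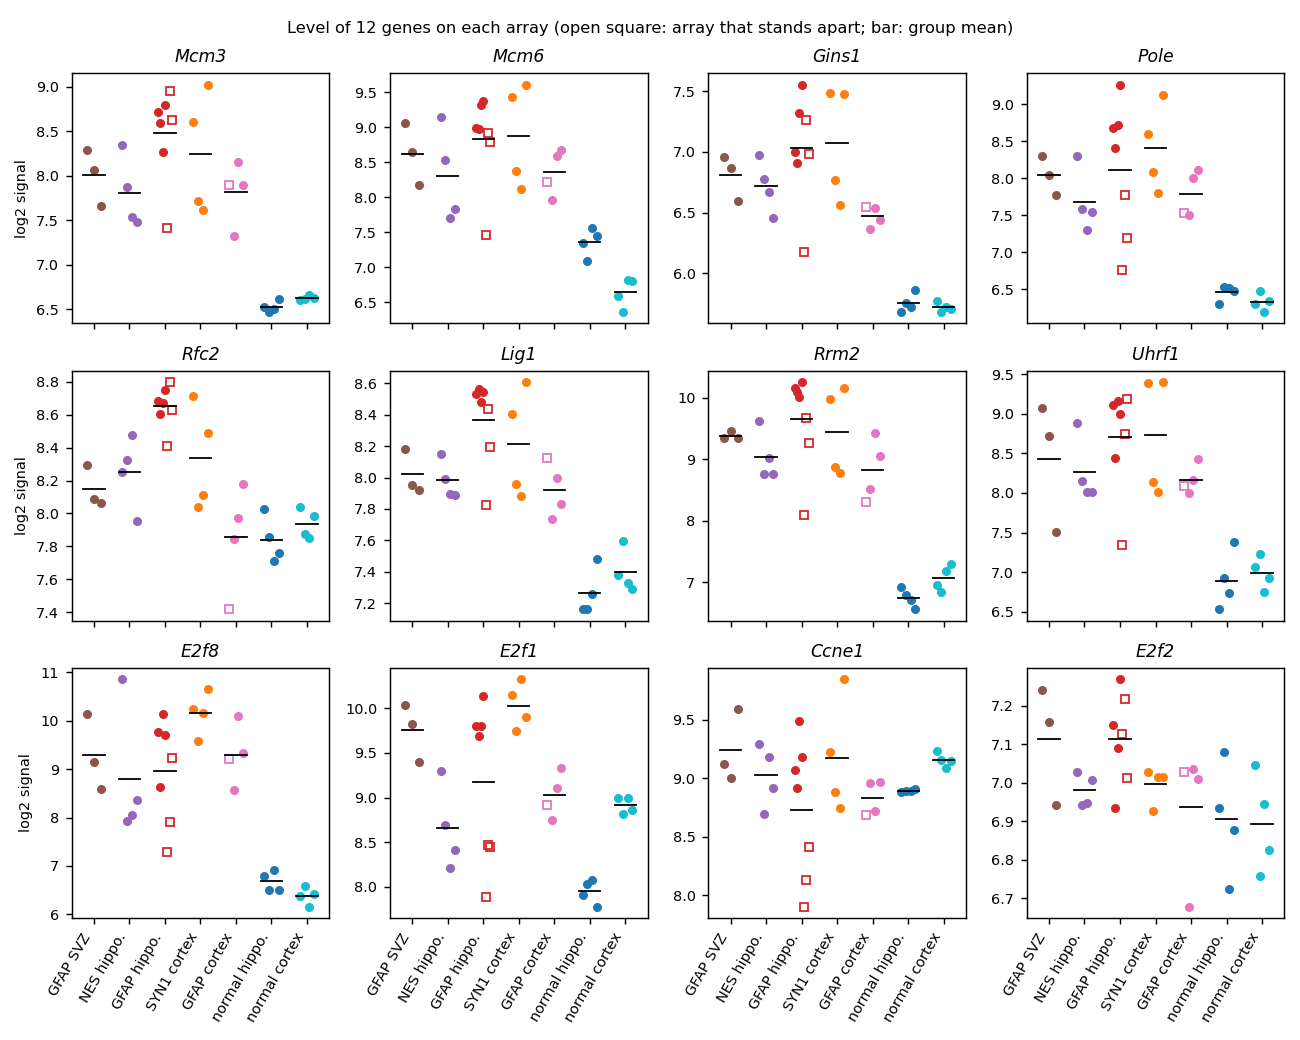
Log2 signal (vertical axes) of 12 genes on each of the 30 arrays by group (horizontal axes), with a bar at the group mean and open squares for the 4 arrays that stand apart. Gins1, Pole, Lig1, Rrm2 and E2f8 separate tumor from normal arrays in every group, the E2f1 points of normal cortex all lie above those of normal hippocampus, the E2f2 points overlap in every group, and the Ccne1 points of GFAP cortex tumors lie below those of normal cortex.

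The lagging strand is made in Okazaki fragments, which Dna2 and Fen1 trim and the ligase Lig1 joins. Of these 3 genes, 3, 2, 3, 3 and 2 rose in GFAP SVZ, NES hippocampus, GFAP hippocampus, SYN1 cortex and GFAP cortex tumors. The 3 GFAP SVZ tumors had Lig1 at 8.18, 7.95 and 7.92 (log2 signal). Hippocampal arrays had Lig1 at 8.15, 7.99, 7.90 and 7.89 in NES tumors and from 7.83 to 8.57 with a median of 8.48 in GFAP tumors, against 7.16, 7.17, 7.26 and 7.48 in normal tissue. Cortical arrays had Lig1 at 8.40, 7.96, 7.88 and 8.61 in SYN1 tumors and 8.12, 7.74, 7.999 and 7.83 in GFAP tumors, against 7.38, 7.60, 7.33 and 7.29 in normal tissue. All tumor arrays lay above all normal arrays, with GFAP hippocampus tumors 1 to 4 close together. The fit put the Lig1 difference at 0.69 ± 0.15 (SE) against all normal brain in GFAP SVZ tumors, 0.71 ± 0.16 in NES hippocampus tumors, 1.10 ± 0.14 in GFAP hippocampus tumors, 0.81 ± 0.16 in SYN1 cortex tumors and 0.52 ± 0.16 in GFAP cortex tumors. The limma adjusted p was 0.000684, 0.00481, 1.59e-06, 0.000178 and 0.0139 in the same order for Lig1. Mean Dna2 levels were 7.36 ± 0.17 in GFAP SVZ tumors, 7.38 ± 0.11 in NES hippocampus tumors and 7.40 ± 0.37 in GFAP hippocampus tumors, against 6.72 ± 0.14 in normal hippocampus. Mean cortical Dna2 levels were 7.55 ± 0.53 in SYN1 tumors and 7.50 ± 0.27 in GFAP tumors, against 6.70 ± 0.05 in normal tissue. Dna2 differed by 0.65, 0.65, 0.67, 0.85 and 0.80 in the same order and rose in all 5. Fen1 rose by 0.42, 0.56 and 0.48 in GFAP SVZ, GFAP hippocampus and SYN1 cortex tumors.

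Replication protein A, which covers single strands at the fork and also serves DNA repair, rose in at most 2 groups. Rpa1 averaged 8.59 ± 0.13 in GFAP SVZ tumors, 8.64 ± 0.18 in NES hippocampus tumors and 8.91 ± 0.19 in GFAP hippocampus tumors, against 8.49 ± 0.13 in normal hippocampus. In cortex, Rpa1 averaged 8.71 ± 0.31 in SYN1 tumors and 8.47 ± 0.39 in GFAP tumors, against 8.31 ± 0.04 in normal tissue. Rpa1 rose by 0.42 in GFAP hippocampus and 0.40 in SYN1 cortex tumors (limma adjusted p = 0.0193 and 0.0471). Mean Rpa2 levels were 8.18 ± 0.29 in GFAP SVZ tumors, 8.47 ± 0.13 in NES hippocampus tumors and 8.51 ± 0.22 in GFAP hippocampus tumors, against 8.05 ± 0.08 in normal hippocampus. Mean cortical Rpa2 levels were 8.34 ± 0.21 in SYN1 tumors and 8.25 ± 0.24 in GFAP tumors, against 8.06 ± 0.09 in normal tissue. Rpa2 rose in GFAP hippocampus tumors by 0.45 (limma adjusted p = 0.00593) and passed in no other group.

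All 4 genes of nucleotide supply rose in GFAP SVZ, GFAP hippocampus, SYN1 cortex and GFAP cortex tumors, and 3 of 4 rose in NES hippocampus tumors. Rrm2 encodes the subunit of ribonucleotide reductase that is made in S phase, and had the second largest mean difference of the 46 genes. Log2 signals of Rrm2 were 9.35, 9.45 and 9.35 in GFAP SVZ tumors. Rrm2 in hippocampus was measured at 9.61, 8.75, 9.02 and 8.76 in NES tumors and from 8.09 to 10.25 with a median of 10.01 in GFAP tumors, against 6.92, 6.80, 6.71 and 6.56 in normal tissue. Rrm2 in cortex was measured at 9.97, 8.87, 8.77 and 10.15 in SYN1 tumors and 8.30, 8.51, 9.42 and 9.06 in GFAP tumors, against 6.96, 6.83, 7.18 and 7.29 in normal tissue. Every tumor array lay above every normal array, the lowest being GFAP hippocampus tumor 5, and the 3 SVZ tumors lay close together. Rrm2 differed by 2.47 ± 0.34 (SE) against all normal brain in GFAP SVZ tumors, 2.29 ± 0.36 in NES hippocampus tumors, 2.90 ± 0.32 in GFAP hippocampus tumors, 2.37 ± 0.36 in SYN1 cortex tumors and 1.76 ± 0.36 in GFAP cortex tumors. Their adjusted p from limma was 5.3e-06, 0.000172, 1.8e-07, 1.07e-05 and 0.000887 in the same order for Rrm2. The difference in GFAP hippocampus tumors is a 7.47-fold one, and that in GFAP cortex tumors a 3.38-fold one.

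Rrm1, the large subunit of the same enzyme, rose by 1.53, 1.51, 1.71, 1.38 and 0.98 in GFAP SVZ, NES hippocampus, GFAP hippocampus, SYN1 cortex and GFAP cortex tumors. Mean Tyms levels were 9.01 ± 0.67 in GFAP SVZ tumors, 8.20 ± 0.52 in NES hippocampus tumors and 8.60 ± 0.95 in GFAP hippocampus tumors, against 7.31 ± 0.27 in normal hippocampus. Mean cortical Tyms levels were 9.22 ± 0.60 in SYN1 tumors and 8.37 ± 0.23 in GFAP tumors, against 6.97 ± 0.37 in normal tissue. Tyms, thymidylate synthase, rose in 4 groups and differed by 0.90 in NES hippocampus tumors (limma adjusted p = 0.207). Tk1 averaged 8.22 ± 0.26 in GFAP SVZ tumors, 7.86 ± 0.30 in NES hippocampus tumors and 8.31 ± 0.35 in GFAP hippocampus tumors, against 7.17 ± 0.07 in normal hippocampus. In cortex, Tk1 averaged 8.27 ± 0.26 in SYN1 tumors and 7.95 ± 0.18 in GFAP tumors, against 7.26 ± 0.13 in normal tissue. Tk1, the thymidine kinase of dividing cells, rose by 1.01, 0.69, 1.14, 1.01 and 0.69 (limma adjusted p = 5.05e-05, 0.0152, 4.97e-06, 6.95e-05 and 0.00541). Its second, dimmer probe set gave 0.61 in NES hippocampus, 1.16 in GFAP hippocampus, 0.96 in SYN1 cortex and 0.71 in GFAP cortex tumors.

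Chaf1a and Chaf1b form most of the chromatin assembly factor that places histones on new DNA, and Uhrf1 guides the copying of DNA methylation. All 3 rose in GFAP SVZ, GFAP hippocampus, SYN1 cortex and GFAP cortex tumors. Log2 signals of Uhrf1 were 9.07, 8.72 and 7.51 in GFAP SVZ tumors. Uhrf1 in hippocampus was measured at 8.89, 8.15, 8.02 and 8.01 in NES tumors and from 7.34 to 9.19 with a median of 9.003 in GFAP tumors, against 6.53, 6.92, 6.74 and 7.38 in normal tissue. Uhrf1 in cortex was measured at 9.39, 8.14, 8.02 and 9.40 in SYN1 tumors and 8.08, 7.99, 8.16 and 8.43 in GFAP tumors, against 7.06, 7.23, 6.75 and 6.93 in normal tissue. GFAP hippocampus tumor 5 lay among the normal hippocampus arrays and NES hippocampus tumor 1 lay above the other NES tumors. Uhrf1 differed by 1.49 ± 0.35 (SE) against all normal brain in GFAP SVZ tumors, 1.37 ± 0.37 in NES hippocampus tumors, 1.82 ± 0.33 in GFAP hippocampus tumors, 1.75 ± 0.37 in SYN1 cortex tumors and 1.17 ± 0.37 in GFAP cortex tumors. Their adjusted p from limma was 0.00129, 0.018, 9.23e-05, 0.000411 and 0.0177 in the same order for Uhrf1. Chaf1b averaged 8.12 ± 0.30 in GFAP SVZ tumors, 7.89 ± 0.37 in NES hippocampus tumors and 7.97 ± 0.68 in GFAP hippocampus tumors, against 6.68 ± 0.20 in normal hippocampus. In cortex, Chaf1b averaged 8.67 ± 0.41 in SYN1 tumors and 8.01 ± 0.48 in GFAP tumors, against 6.92 ± 0.09 in normal tissue. Chaf1b rose by 1.32, 1.21, 1.28, 1.75 and 1.09 in the 5 groups, in NES hippocampus tumors only with tumor 1 in the fit (limma adjusted p = 0.0774 without it). Uhrf1 was likewise not called in NES tumors without tumor 1.

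Chaf1a passed in all groups but NES hippocampus tumors. The 3 GFAP SVZ tumors had Chaf1a at 8.27, 8.10 and 7.53 (log2 signal). Hippocampal arrays had Chaf1a at 8.07, 7.49, 7.37 and 7.51 in NES tumors and from 7.48 to 8.57 with a median of 8.39 in GFAP tumors, against 7.06, 7.33, 7.19 and 7.44 in normal tissue. Cortical arrays had Chaf1a at 8.61, 8.08, 8.10 and 8.62 in SYN1 tumors and 8.13, 7.75, 7.78 and 7.998 in GFAP tumors, against 7.26, 7.17, 7.17 and 6.88 in normal tissue. Of the NES tumors, tumor 3 overlapped normal hippocampus and tumor 1 lay clearly above it, while no other tumor group overlapped its normal tissue. The fit put the Chaf1a difference at 0.78 ± 0.20 (SE) against all normal brain in GFAP SVZ tumors, 0.36 ± 0.21 in NES hippocampus tumors, 0.96 ± 0.18 in GFAP hippocampus tumors, 1.23 ± 0.21 in SYN1 cortex tumors and 0.80 ± 0.21 in GFAP cortex tumors. The limma adjusted p was 0.00235, 0.326, 0.000168, 3.31e-05 and 0.005 in the same order for Chaf1a.

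The 5 regulators included the largest difference and the flattest genes. E2f8, a repressor E2F that is itself an E2F target and is made in S phase, rose in all groups. Log2 signals of E2f8 were 10.14, 9.15 and 8.59 in GFAP SVZ tumors. E2f8 in hippocampus was measured at 10.86, 7.93, 8.04 and 8.37 in NES tumors and from 7.30 to 10.14 with a median of 9.23 in GFAP tumors, against 6.79, 6.51, 6.91 and 6.50 in normal tissue. E2f8 in cortex was measured at 10.25, 9.58, 10.15 and 10.67 in SYN1 tumors and 9.21, 8.58, 10.09 and 9.33 in GFAP tumors, against 6.38, 6.58, 6.16 and 6.42 in normal tissue. Every tumor array lay above every normal array, NES hippocampus tumor 1 far above the other NES tumors. E2f8 differed by 2.76 ± 0.53 (SE) against all normal brain in GFAP SVZ tumors, 2.12 ± 0.55 in NES hippocampus tumors, 2.27 ± 0.49 in GFAP hippocampus tumors, 3.78 ± 0.55 in SYN1 cortex tumors and 2.92 ± 0.55 in GFAP cortex tumors. Their adjusted p from limma was 0.000155, 0.0146, 0.000594, 6.97e-06 and 0.000443 in the same order for E2f8. In SYN1 cortex tumors the difference is a 13.7-fold one. The NES call was lost without NES hippocampus tumor 1 (limma adjusted p = 0.113).

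E2f1, an activator E2F, was measured at unequal levels in the 2 normal regions, a difference that did not pass with all arrays (limma adjusted p = 0.328). E2f1 had log2 signals of 10.04, 9.82 and 9.40 in the GFAP SVZ tumors. In hippocampus, E2f1 was at 9.30, 8.69, 8.21 and 8.42 in NES tumors and from 7.88 to 10.14 with a median of 9.69 in GFAP tumors, against 7.91, 8.03, 8.08 and 7.78 in normal tissue. In cortex, E2f1 was at 10.15, 9.74, 10.33 and 9.91 in SYN1 tumors and 8.91, 8.75, 9.11 and 9.33 in GFAP tumors, against 8.999, 8.81, 8.99 and 8.86 in normal tissue. Normal hippocampus lay below normal cortex without overlap, and GFAP cortex tumors overlapped normal cortex whereas SYN1 cortex tumors did not. Log2 differences of E2f1 were 1.32 ± 0.33 (SE) against all normal brain in GFAP SVZ tumors, 0.71 ± 0.35 in NES hippocampus tumors, 1.23 ± 0.31 in GFAP hippocampus tumors, 1.12 ± 0.35 in SYN1 cortex tumors and 0.11 ± 0.35 in GFAP cortex tumors. With limma the adjusted p was 0.00217, 0.229, 0.0023, 0.011 and 0.864 in the same order for E2f1. It also passed without the 4 arrays that stand apart in NES hippocampus tumors (limma adjusted p = 0.0101, difference 0.71) and did not in GFAP cortex tumors (limma adjusted p = 0.582).

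The cyclin E genes and E2f2 passed in no group. The 3 GFAP SVZ tumors had Ccne1 at 9.12, 9.004 and 9.59 (log2 signal). Hippocampal arrays had Ccne1 at 9.30, 8.70, 9.19 and 8.92 in NES tumors and from 7.90 to 9.49 with a median of 8.92 in GFAP tumors, against 8.89, 8.89, 8.89 and 8.91 in normal tissue. Cortical arrays had Ccne1 at 9.23, 8.88, 8.74 and 9.85 in SYN1 tumors and 8.69, 8.96, 8.72 and 8.97 in GFAP tumors, against 9.24, 9.16, 9.09 and 9.15 in normal tissue. Ccne1, a cyclin E gene, overlapped between tumor and normal arrays in 4 comparisons, and in GFAP cortex tumors every array lay below normal cortex (23.9% of all genes lay apart in that direction). Ccne1 differences were 0.21, 0.13, -0.16, 0.02 and -0.33 (limma adjusted p = 0.572, 0.818, 0.595, 0.971 and 0.397). Log2 signals of E2f2 were 7.24, 7.16 and 6.94 in GFAP SVZ tumors. E2f2 in hippocampus was measured at 7.03, 6.94, 6.95 and 7.01 in NES tumors and from 6.93 to 7.27 with a median of 7.13 in GFAP tumors, against 6.93, 7.08, 6.72 and 6.88 in normal tissue. E2f2 in cortex was measured at 7.03, 6.93, 7.02 and 7.01 in SYN1 tumors and 7.03, 6.68, 7.03 and 7.01 in GFAP tumors, against 7.05, 6.76, 6.94 and 6.82 in normal tissue. E2f2, another activator E2F, spanned a narrow range and overlapped everywhere, with differences of 0.21, 0.08, 0.21, 0.10 and 0.04 (limma adjusted p = 0.0899, 0.713, 0.0677, 0.489 and 0.808).

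Ccne2, the second cyclin E gene, was less flat. Ccne2 averaged 7.44 ± 0.41 in GFAP SVZ tumors, 7.70 ± 0.16 in NES hippocampus tumors and 7.33 ± 0.61 in GFAP hippocampus tumors, against 6.90 ± 0.27 in normal hippocampus. In cortex, Ccne2 averaged 7.70 ± 0.63 in SYN1 tumors and 7.39 ± 0.24 in GFAP tumors, against 7.30 ± 0.08 in normal tissue. Its differences were 0.34, 0.79, 0.43, 0.40 and 0.09 (limma adjusted p = 0.398, 0.0943, 0.193, 0.31 and 0.87). Ccne2 passed without the 4 arrays that stand apart in NES and GFAP hippocampus tumors (difference 0.79 and 0.89, limma adjusted p = 0.0173 and 0.0026).

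Within groups, arrays differed in the level of the whole gene set. GFAP hippocampus tumors 1 to 4 had means of 8.83, 8.72, 8.91 and 9.06 over the 46 genes, and tumors 5, 6 and 7 had 7.55, 8.27 and 8.23. Tumors 1 to 4 had 46, 45, 46 and 46 genes above all 4 normal hippocampus arrays. Tumors 5, 6 and 7 had 22, 40 and 36 such genes, and the share of all genes above those arrays was not taken. Tumor 5 was the lowest of the 7 for 43 of the 46 genes, and for 28.5% of all genes. In 27 genes tumors 5 to 7 all lay below tumors 1 to 4, and in none all above, against 28.9% of all genes below and 5% above. Over all genes the median log2 signal was 7.57, 7.86, 7.92 and 7.79 in tumors 1 to 4 and 7.46, 7.52 and 7.43 in tumors 5, 6 and 7. The brightest probe set reached 14.03 to 15.24 in tumors 1 to 4 and 15.68 to 16.07 in tumors 5, 6 and 7. The part of these array-wide values in the lower replication gene levels was not tested. Mitosis genes also averaged less in tumors 5, 6 and 7, with means of 9.05, 8.94, 9.02 and 9.35 in tumors 1 to 4 and 7.24, 8.17 and 7.99 in tumors 5, 6 and 7. Neuron markers averaged 9.53, 10.84, 10.78 and 10.30 in tumors 1 to 4 and 11.28, 9.85 and 9.59 in tumors 5, 6 and 7, and their part in the replication gene values was not tested.

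**Figure D4:**
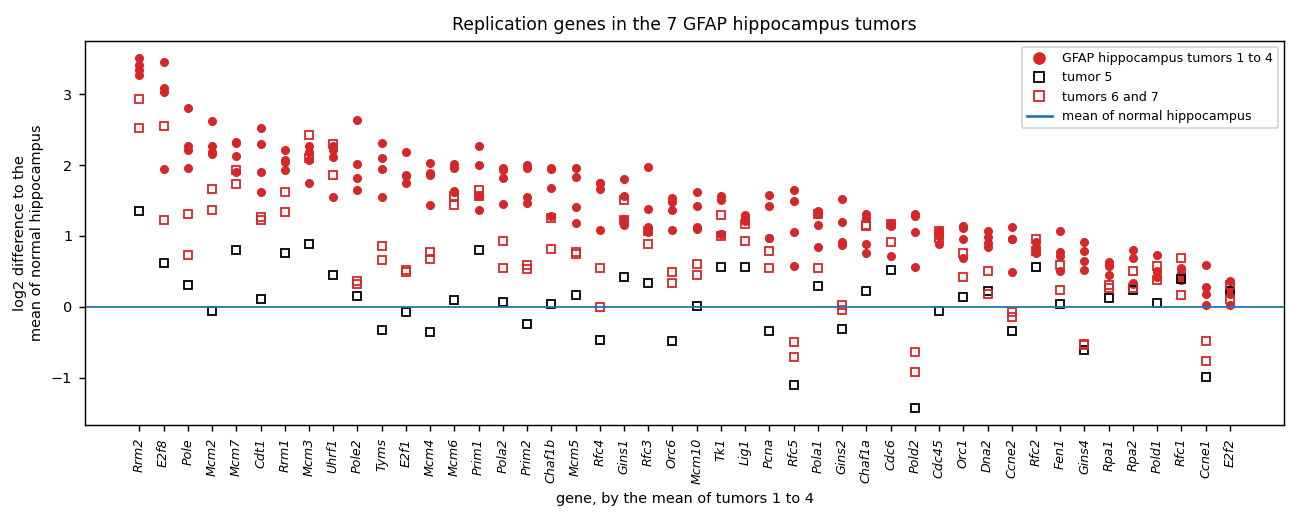
Log2 difference of each of the 7 GFAP hippocampus tumors from the mean of normal hippocampus (vertical axis; line at 0) for the 46 genes ordered by the mean of tumors 1 to 4 (horizontal axis). Filled points are tumors 1 to 4, and open squares are tumor 5 (black) and tumors 6 and 7 (red). Tumor 5 is the lowest for 43 genes.

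The SYN1 cortex tumors also fell into unlike arrays. Tumors 1 and 4 had 33 and 34 genes more than 1 log2 unit above the mean of normal cortex, and tumors 2 and 3 had 14 and 17. Against the mean of normal hippocampus, NES hippocampus tumor 1 had 24 such genes and tumors 2, 3 and 4 had 14, 8 and 9. GFAP hippocampus tumor 5 had 1 against the same mean, the fewest of the tumors. The share of all genes was not taken for these counts.

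Tumors begun with different promoters in the same region were compared next. In hippocampus, NES tumors had lower replication gene levels than GFAP tumors in most genes, with a median difference of -0.27 over the 46, against 0.06 over all genes. The difference depended on which GFAP tumors were used. Array means over the 46 genes were 8.04 to 8.65 in NES tumors. GFAP tumors 1 to 4, at 8.72 to 9.06, lay above all of these. GFAP tumors 5, 6 and 7, at 7.55, 8.27 and 8.23, lay among or below the NES arrays, and they belong to the 4 arrays that stand apart. Chaf1a was the single gene that passed, lower in NES tumors (log2 difference -0.61 ± 0.18, SE, limma adjusted p = 0.0412), where 2.09% of all genes were called lower and 6.12% higher. At an unadjusted p under 0.05, 8 of the 46 were lower and 0 higher (7.85% and 19.8% of all genes). The Chaf1a arrays, given above, overlapped between the groups. The count moved with single arrays. It was 0 without any 1 of GFAP hippocampus tumors 1, 3, 4, 6 and 7 or NES hippocampus tumors 2, 3 and 4. Without GFAP hippocampus tumor 5 it was 13 (4.6% of all genes called lower), and without the 4 arrays that stand apart it was 26 of 46 lower and none higher, where 10.8% of all genes were called lower. The largest of these differences by limma were E2f1 (-1.20, adjusted p = 0.00366), Mcm2 (-1.12, adjusted p = 0.0119), Cdt1 (-1.12, adjusted p = 0.00704) and Rrm2 (-1.09, adjusted p = 0.00932), picked here after their values were seen. Neuron markers differed too, with 1 of 8 called higher in NES tumors and 6 of 8 higher at an unadjusted p under 0.05, and their part in the result was not tested.

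In cortex, all 46 genes had higher means in SYN1 than in GFAP tumors, and none passed the test by limma, while 9 had an unadjusted p under 0.05, all higher (10.4% of all genes were higher at that p). The median difference was 0.49, against 0.07 over all genes, and 0.15% of all genes were called higher and 0.0251% lower. In 7 genes the SYN1 arrays all lay above the GFAP cortex arrays (6.56% of all genes did). Without the 4 arrays that stand apart 4 genes passed by limma, namely Mcm4 (0.69, adjusted p = 0.0227), Cdc45 (0.48, adjusted p = 0.0409), Gins1 (0.63, adjusted p = 0.0311) and E2f1 (0.97, adjusted p = 0.00942), where 5.55% of all genes were called higher.

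**Figure D5:**
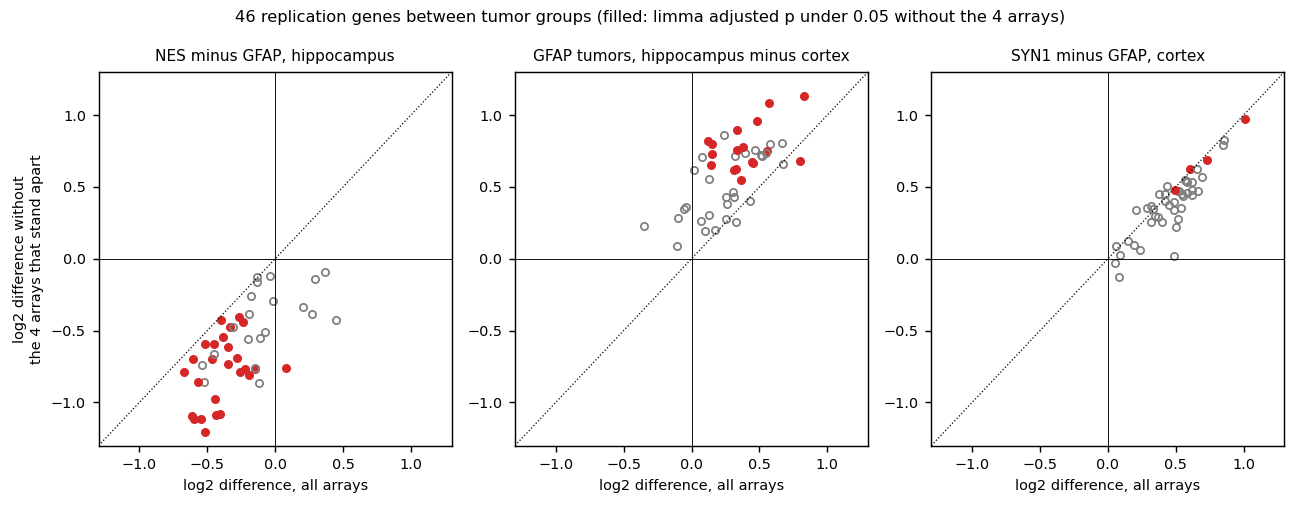
Log2 difference of each of the 46 genes with all arrays (horizontal axes) and without the 4 arrays that stand apart (vertical axes) in 3 comparisons of tumor groups, with filled points for limma adjusted p under 0.05 without those arrays and a dotted line of equal values. Without them NES minus GFAP differences in hippocampus are below 0 for all genes and 26 pass, GFAP hippocampus minus cortex differences are above 0 and 17 pass, and 4 pass for SYN1 minus GFAP in cortex.

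Among GFAP tumors, those of the hippocampus were set against those of the cortex. Rfc2 was the only member that passed, higher in hippocampus tumors by 0.80 ± 0.13 (SE, limma adjusted p = 0.00549), where 2.24% of all genes were called higher and 0.441% lower. At an unadjusted p under 0.05, 11 were higher (11.3% of all genes). Rfc2 did not pass with only these 2 groups in the fit (limma adjusted p = 0.422), and passed without the 4 arrays that stand apart (0.68, limma adjusted p = 0.0132). The median over the 46 was 0.31, against 0.003 over all genes. Without GFAP hippocampus tumor 5 the count was 6 (3.71% of all genes), without the 4 arrays 17 (8.49%) and with tumors 1 to 4 of the hippocampus group only 25 (8.94%). Equal replicate numbers paired these 2 groups, and with the replicate number as a block the count was 25 of 46 higher (9% of all genes). That fit in effect compares tumors 1 to 4 of each group, since tumors 5 to 7 have no partner. Beyond Rfc2, the largest differences without the 4 arrays by limma were Rrm2 (1.13, adjusted p = 0.0189), Mcm2 (1.09, adjusted p = 0.0292), Cdt1 (0.96, adjusted p = 0.0236) and Pole (0.90, adjusted p = 0.0329), picked after their values were seen.

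Rfc2 also differed in the test of tumor by region, which asks whether the step from normal tissue to GFAP tumor is the same in hippocampus and cortex. The interaction was 0.89 ± 0.20 (SE, limma adjusted p = 0.0233). That call was lost without any 1 of normal cortex 1, normal cortex 4, normal hippocampus 3 and normal hippocampus 4 (limma adjusted p up to 0.0699), and 0.341% of all genes were called higher and 0.497% lower in it. Without the 4 arrays Rfc2 remained and 3 more passed by limma, namely Lig1 (0.80, adjusted p = 0.0261), Rrm2 (1.45, adjusted p = 0.0359) and E2f1 (1.77, adjusted p = 0.000807), where 1.74% of all genes were called higher and 0.953% lower. The Rfc2 value is 0.78 there (limma adjusted p = 0.0327).

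The 2 normal regions were compared as well. For E2f1, normal hippocampus had 7.95 ± 0.13 and normal cortex 8.92 ± 0.09 (mean ± SD, n = 4 each), a difference of -0.97 ± 0.35 (SE, limma adjusted p = 0.328) that did not pass with all arrays and passed without the 4 tumor arrays (-0.97, limma adjusted p = 0.00324), since the spread is pooled. No member passed between normal regions with all arrays by limma, and 1 had an unadjusted p under 0.05, lower in hippocampus, as had 3.52% of all genes (0.562% of all genes were called higher and 0.727% lower). The GFAP cortex tumors overlapped normal cortex for E2f1. GFAP hippocampus tumors 1 to 4 lay at 9.69 to 10.14, above all normal arrays. Tumors 5 to 7 of that group lay at 7.88 to 8.47, below every normal cortex array.

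No member passed between GFAP SVZ tumors and the other GFAP tumors with all arrays. Against GFAP cortex tumors limma called none, 1 gene was higher at an unadjusted p under 0.05 (6.61% of all genes were), and the median was 0.23 (0.00502% of all genes were called higher and 0% lower). Against GFAP hippocampus tumors limma called none, 4 genes were lower at an unadjusted p under 0.05 (5.86% of all genes were), and the median was -0.09 (0.15% of all genes were called higher and 0.166% lower). Once the 4 arrays were left out, Orc6 (0.58, adjusted p = 0.0496) and E2f1 (0.69, adjusted p = 0.0421) passed by limma against cortex tumors (where 4.74% of all genes were called higher), and Gins4 (-0.79, adjusted p = 0.0459) against hippocampus tumors (where 0.507% of all genes were called lower). The SVZ group holds 3 tumors, and the missing calls do not show that the groups are alike.

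Other genes of the same machinery were taken as a list of 50. Of these further replication genes, limma called 21, 13, 27, 25 and 13 higher and 2, 0, 3, 1 and 1 lower in GFAP SVZ, NES hippocampus, GFAP hippocampus, SYN1 cortex and GFAP cortex tumors. The medians were 0.35, 0.40, 0.42, 0.54 and 0.23. The 4 with the largest mean difference over the 4 region-matched comparisons were Ccna2 (cyclin A, the S phase cyclin), Dbf4 (the partner of the firing kinase), Pclaf (a clamp-binding protein) and Asf1b (a histone chaperone). Their differences were 2.92, 2.63, 3.02 and 2.51 for Ccna2 and 1.85, 2.56, 2.82 and 1.93 for Dbf4 in NES hippocampus, GFAP hippocampus, SYN1 cortex and GFAP cortex tumors. Pclaf had 2.04, 2.25, 2.24 and 1.67 and Asf1b 1.67, 2.12, 2.44 and 1.63, and all 4 passed in all 4 groups. The 4 with the smallest were Pole4 (an accessory subunit of polymerase epsilon), Rrm2b (the reductase subunit of resting cells), Tk2 (the thymidine kinase of mitochondria) and Orc3. Rrm2b had -0.32, -0.39, -0.36 and -0.42 and fell in GFAP hippocampus, SYN1 cortex and GFAP cortex tumors. Tk2 (-0.09, -0.41, -0.35 and -0.46) and Orc3 (-0.04, -0.73, -0.05 and -0.40) fell in GFAP hippocampus tumors, and Pole4 (-0.09, -0.76, -0.32 and -0.48) passed in none. Rrm2, the S phase subunit of the reductase, and Tk1 rose in every tumor group. They thus rose where Rrm2b or Tk2 fell and also in NES hippocampus tumors, where neither fell.

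Of 24 mitosis genes, which serve a later step of the same cycle, 23, 23, 23, 24 and 23 rose in GFAP SVZ, NES hippocampus, GFAP hippocampus, SYN1 cortex and GFAP cortex tumors, with medians of 1.98, 1.62, 1.86, 2.24 and 1.63. In NES hippocampus tumors 23 of 24 mitosis genes passed beside 15 of 46 replication genes. The 2 lists were not tested against each other. The E2F letters occurred in 1 of 20 mitosis genes with a window (5%) and in 15 of 41 of the further replication genes (36.6%). The letters TTTGAA, a form of the CHR element of cell cycle genes, occurred in 14 of 20 mitosis genes (70%) and 6 of 38 replication genes (15.8%), against 20.2% of all genes.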

How the data were processed

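Affymetrix Mouse Gene 1.0 ST arrays had been hybridised with RNA from 22 tumors and 8 samples of normal brain. Per the labels' protocols, total RNA was taken with Trizol and labelled with biotin through an Ambion WT expression kit. The deposited values are log2 signals per probe set, and Affymetrix Power Tools, MAS5 and RMA appear in the submitters' processing notes with neither order nor version. Whether the authors normalised the arrays to each other, and the genome build and annotation, are not given in the sources used here. Array quartiles differ among the deposited columns, so the probe set values do not share a common distribution. This does not settle whether the arrays were normalised to each other at an earlier step. The number of arrays limits the precision.

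Of 35556 probe sets, 21789 carried 1 gene symbol, 1621 several and 12146 none in the platform annotation. Symbols were updated through Entrez identifiers to RefSeq (GRCm38.p6), where 21698 matched, and the brightest probe set stood for each of 19938 genes (999 had several). A linear model with 7 group means was fitted to all 30 arrays with limma (version 3.58.1, R 4.3.3) and its moderated test, and p-values were adjusted by Benjamini-Hochberg over all genes of each of 12 comparisons. The fit was also run on simulated data with independent noise and, for each gene, the same spread in every group. The real groups differ in spread. The SD of the 46-gene mean was 0.013 in normal hippocampus and 0.53 in GFAP hippocampus tumors. That run therefore does not show how the fit behaves with such groups. No values were imputed and no arrays dropped from the main fit. Of the 46 genes, 2 had a second probe set. The 46 genes, the role groups and the other lists were chosen with earlier results of these data known. The genes given with values for every group were the top and bottom by mean difference within each role, those called in none of the 4 region-matched comparisons and those called between tumors or regions.

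Equal replicate numbers in the titles were checked as pairs by the correlation of deviations from the group means over all genes. Only GFAP hippocampus against GFAP cortex tumors passed in every pair (r from 0.277 to 0.306 in 4 pairs). Other settings tried were scaling by median or quantiles, leaving out the 30% dimmest genes, averaging probe sets, other variance models, array weights, only the groups compared, a replicate block, stricter thresholds, and leaving out single arrays or the 4 that stand apart.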

Additional observations from a re-analysis of the deposited data

Results flagged for a closer look

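In 10 of 174 groups of 4 to 7 arrays, the highest or lowest array stood far from the others by Dixon's ratio, a rate near the 1 in 20 that chance gives. GFAP hippocampus tumor 5 was the low one for Mcm6 (7.458, the other 6 at 8.792 to 9.372), Mcm7 (8.157, the others at 9.09 to 9.69) and Uhrf1 (7.342, the others at 8.44 to 9.194). NES hippocampus tumor 1 was the high one for Mcm10 (7.682, the other 3 at 7.241 to 7.298), Uhrf1 (8.885, the others at 8.011 to 8.148) and E2f8 (10.86, the others at 7.93 to 8.369). E2f2 was low in GFAP cortex tumor 2 (6.678, the others at 7.009 to 7.035) and in SYN1 cortex tumor 2 (6.927, the others at 7.014 to 7.028). Ccne2 was high in SYN1 cortex tumor 4 (8.652, the others at 7.368 to 7.415). Among normal arrays, Rpa2 was high in normal hippocampus 2 (8.165, the others at 8.002 to 8.025).

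Differences between groups passed limma's test for 2 genes. Rfc2 had an interaction of tumor and region of 0.89 and a difference of 0.8 between GFAP hippocampus and GFAP cortex tumors, where all 7 hippocampus tumors lay above all 4 cortex tumors. Chaf1a had a difference of -0.61 between NES and GFAP hippocampus tumors, whose arrays overlapped.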

How the results depend on the processing

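Counts of the 46 genes called are given here where they moved by over 1.5 times, and the cause was not tested except where stated. Shares of all genes called under the same setting are given only where stated. Elsewhere a count may have moved together with the calls over all genes, and this was not tested. At an adjusted p under 0.01, 23 genes passed in GFAP SVZ, 6 in NES hippocampus and 11 in GFAP cortex tumors against normal brain, 0 between NES and GFAP hippocampus tumors and 0 in the interaction of tumor and region. With a difference of at least 1 the counts were 21 in GFAP SVZ, 9 in NES hippocampus, 23 in GFAP hippocampus and 13 in GFAP cortex tumors against normal brain, and 0 for NES against GFAP hippocampus, GFAP hippocampus against GFAP cortex and the interaction. Array weights gave 37 in NES hippocampus and 38 in GFAP cortex tumors against normal brain, 24 for NES against GFAP hippocampus, 3 for GFAP hippocampus against GFAP cortex, 3 for SYN1 against GFAP cortex, 3 for GFAP SVZ against GFAP cortex, 3 for GFAP SVZ against GFAP hippocampus, 8 in the interaction and 2 between normal regions. Median centring gave 15 and quantile normalization 14 for NES against GFAP hippocampus, and 6 and 2 for GFAP hippocampus against GFAP cortex. Averaging probe sets gave 2 for NES against GFAP hippocampus. With only the groups compared in the fit, 30 passed in NES hippocampus tumors against normal tissue, 5 between normal regions, and 0 for NES against GFAP hippocampus and for GFAP hippocampus against GFAP cortex.

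The replicate block gave 29 in NES hippocampus tumors against normal tissue, 23 for NES against GFAP hippocampus, 25 for GFAP hippocampus against GFAP cortex, 3 for SYN1 against GFAP cortex, 4 in the interaction and 1 between normal regions. Outside GFAP hippocampus against cortex the samples share only a number (r from -0.394 to 0.565). Without the 4 arrays that stand apart, 32 passed in NES hippocampus tumors against normal tissue, 26 for NES against GFAP hippocampus, 17 for GFAP hippocampus against GFAP cortex, 4 for SYN1 against GFAP cortex, 2 for GFAP SVZ against GFAP cortex, 1 for GFAP SVZ against GFAP hippocampus, 4 in the interaction and 1 between normal regions. In that setting 11.2% of all genes were called higher in NES hippocampus tumors against normal tissue, against 5.69% with all arrays. For NES against GFAP hippocampus 10.8% of all genes were called lower, against 2.09% with all arrays. For GFAP hippocampus against GFAP cortex 8.49% were called higher, against 2.24%. With GFAP hippocampus tumors 1 to 4 only, 21 passed for NES against GFAP hippocampus, 25 for GFAP hippocampus against GFAP cortex and 4 in the interaction. Rfc5 changed sign between NES and GFAP hippocampus tumors, to -0.76 under the replicate block, without the 4 arrays and with tumors 1 to 4 only. Leaving out single arrays gave 24 to 35 in GFAP SVZ, 6 to 16 in NES hippocampus, 37 to 40 in GFAP hippocampus, 31 to 39 in SYN1 cortex and 17 to 22 in GFAP cortex tumors against normal brain, with the lowest without GFAP SVZ tumor 1 or 2, NES hippocampus tumor 1 and GFAP cortex tumor 4. It gave 0 to 13 for NES against GFAP hippocampus, 1 to 6 for GFAP hippocampus against GFAP cortex, 0 to 1 in the interaction (0 without normal cortex 1 or 4 or normal hippocampus 3 or 4), and 0 in every case for the other comparisons. No other direction of a called gene turned. The variance model with trend and leaving out dim genes moved no count past 1.5 times.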

Other observations

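Among 12 genes that hold back S phase entry, limma called 6, 3, 4, 6 and 4 higher and 1, 0, 2, 1 and 1 lower in GFAP SVZ, NES hippocampus, GFAP hippocampus, SYN1 cortex and GFAP cortex tumors. Rbl1, a pocket protein that binds E2F, differed by 1.79, 1.57, 1.74, 1.96 and 1.47 in the same order of groups and rose in all 5 by limma. Cdkn2a, which encodes an inhibitor of the cyclin D kinases, differed by 2.12, 1.37, 2.38, 2.46 and 1.64 and rose in all 5. Its neighbour Cdkn2b differed by 1.99, 1.28, 2.31, 2.76 and 1.62 and rose in all but NES hippocampus tumors (limma adjusted p = 0.0531). Cdkn2c, an inhibitor of the same family, differed by 0.62, 0.98, 0.82, 0.996 and 0.63 and rose in all 5.

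Other members of the list went the other way or did not pass. Cdkn2d differed by -0.54, -0.41, -0.30, -0.44 and -0.56 and fell in GFAP SVZ, SYN1 cortex and GFAP cortex tumors. Rb1 and Rbl2, the other pocket protein genes, fell in GFAP hippocampus tumors alone of the 5 by limma (log2 difference -0.81 and -0.58, adjusted p = 0.0363 and 0.0183), and whether that differs from the other groups was not tested. E2f4 and E2f5, the repressor E2Fs of resting cells, rose in GFAP SVZ and SYN1 cortex tumors, E2f4 by 0.997 and 0.68 and E2f5 by 1.35 and 1.22. Cdkn1b, Cdkn1c and E2f6 passed in no group.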
